A study of Mus musculus with 7 samples.

Results

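The genes described here are 10 that carry, restrain or answer the interleukin 4 (IL-4) signal in B cells: Il4ra, Il2rg, Jak1, Jak3, Stat6, Socs1, Socs3, Cish, Fcer2a and Batf. They were taken by name from the deposited table of 46959 features, all 10 were found there, and all 10 passed the filter that left 18062 genes for testing. The samples were mouse splenic B cells, purified and then cultured for 4 days with lipopolysaccharide (LPS, a bacterial activator of B cells, 1 µg/mL) and IL-4 (20 ng/mL). They came as 4 libraries of genotype cKO MED1 and 3 of genotype wildtype (WT), so both groups had received the cytokine and none of these samples is a culture without IL-4. Med1 encodes a subunit of Mediator, a complex through which transcription factors act on RNA polymerase II. The labels name no Cre driver, strain or age and do not say whether libraries came from separate mice, so the p-values measure the spread between these libraries, which may in part be technical.

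IL-4 binds the IL-4 receptor alpha chain, encoded by Il4ra, which on lymphocytes pairs with the common gamma chain, encoded by Il2rg. The kinases JAK1 and JAK3 sit on these chains and phosphorylate STAT6, which then enters the nucleus and activates genes such as Fcer2a, the gene of the low-affinity IgE receptor CD23. SOCS1, SOCS3 and CIS (the product of Cish) belong to the suppressor of cytokine signalling family, which dampens JAK and STAT signalling and is itself induced by cytokines. BATF is an AP-1 family transcription factor that activated B cells need for class switch recombination.

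The promoter windows of the 5 genes that passed the test below and of Cish, the remaining feedback gene, are shown first (for Fcer2a the window with a match), because STAT factors recognise paired half-sites that can be read from the letters. They are RefSeq sequences of build GRCm38.p6, 250 bases before to 50 after an annotated start, written 5′ to 3′ on the gene's strand. Capitals mark each match to TTCNNNNGAA, the spacing that STAT6 prefers, or to TTCNNNGAA, the spacing shared by most other STAT factors. Both motifs read the same on either strand, and no match to one overlapped a match to the other.
Il4ra, chr7:125552021-125552320, plus strand: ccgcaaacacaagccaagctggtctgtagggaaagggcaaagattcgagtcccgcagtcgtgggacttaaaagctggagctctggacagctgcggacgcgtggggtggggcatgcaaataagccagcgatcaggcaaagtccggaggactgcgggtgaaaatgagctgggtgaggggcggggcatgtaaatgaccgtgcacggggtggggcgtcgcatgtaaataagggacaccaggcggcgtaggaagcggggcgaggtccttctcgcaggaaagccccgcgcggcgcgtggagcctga
Jak3, chr8:71676133-71676432, plus strand: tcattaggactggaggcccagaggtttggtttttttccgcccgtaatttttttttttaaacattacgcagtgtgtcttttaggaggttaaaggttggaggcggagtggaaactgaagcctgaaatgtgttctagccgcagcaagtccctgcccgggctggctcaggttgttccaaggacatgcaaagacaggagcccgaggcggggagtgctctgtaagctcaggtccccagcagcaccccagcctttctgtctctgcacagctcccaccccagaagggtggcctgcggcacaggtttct
Socs1, chr16:10785487-10785786, minus strand: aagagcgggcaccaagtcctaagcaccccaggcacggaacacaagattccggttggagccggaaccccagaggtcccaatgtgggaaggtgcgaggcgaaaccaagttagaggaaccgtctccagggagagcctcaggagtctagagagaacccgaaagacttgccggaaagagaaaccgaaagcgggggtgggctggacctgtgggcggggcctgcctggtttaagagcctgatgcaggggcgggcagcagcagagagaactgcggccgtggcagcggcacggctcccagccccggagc
Socs3, chr11:117969317-117969616, minus strand: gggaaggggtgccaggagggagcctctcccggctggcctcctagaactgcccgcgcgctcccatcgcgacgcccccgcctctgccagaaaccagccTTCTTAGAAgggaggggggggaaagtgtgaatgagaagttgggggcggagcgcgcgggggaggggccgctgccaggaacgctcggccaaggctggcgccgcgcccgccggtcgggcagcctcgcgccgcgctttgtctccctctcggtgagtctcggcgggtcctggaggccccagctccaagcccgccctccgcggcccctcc
Cish, chr9:107296409-107296708, plus strand: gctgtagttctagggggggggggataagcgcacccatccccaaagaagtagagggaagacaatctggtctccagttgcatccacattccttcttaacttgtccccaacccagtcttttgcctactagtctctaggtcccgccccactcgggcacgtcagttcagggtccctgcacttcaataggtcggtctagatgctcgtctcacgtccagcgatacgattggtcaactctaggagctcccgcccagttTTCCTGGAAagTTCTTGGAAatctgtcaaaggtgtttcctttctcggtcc
Fcer2a, chr8:3690812-3691111, minus strand: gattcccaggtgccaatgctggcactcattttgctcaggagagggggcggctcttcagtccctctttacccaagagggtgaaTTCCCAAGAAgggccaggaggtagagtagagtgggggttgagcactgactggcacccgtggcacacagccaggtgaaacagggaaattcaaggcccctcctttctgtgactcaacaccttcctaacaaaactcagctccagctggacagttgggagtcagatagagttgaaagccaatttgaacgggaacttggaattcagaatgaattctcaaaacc

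All 10 genes had at least 1 window in the RefSeq table, 12 windows in all, of which Fcer2a had 3. The STAT6 spacing was found in 1 gene, Fcer2a, in 1 of its 3 windows, where TTCCCAAGAA began at position -168 from the start. The shorter spacing was found in 2 genes. Socs3 held TTCTTAGAA at position -154, and Cish held a pair, TTCCTGGAA at position 1 and TTCTTGGAA at position 12. The windows of the other genes, Il4ra and Socs1 among them, held neither motif. Among all 27025 genes with a window, 8.01% held the longer motif and 9.55% the shorter. These matches are letters in a window and do not show binding.

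The libraries held 31937372 to 61149274 recovered reads, and each WT library was deeper than each cKO MED1 library. Values are given as normalised reads, which are whole reads recovered from the deposited values and scaled to a common library of 48019763 reads. Med1, the targeted gene, stood at 2585, 2172, 2249.5 and 2436 normalised reads in cKO MED1 replicates 1 to 4, against 4756, 4173 and 4210.1 in WT replicates 1 to 3, which is lower by limma (log2 fold change -0.89, adjusted p = 0.000174). By reads of Ddx3y, a Y-linked gene, and Xist, the RNA of the inactive X, cKO MED1 replicates 1, 2 and 4 were female, and cKO MED1 replicate 3 and all 3 WT libraries were male. Sex and genotype can therefore be compared apart only through 1 cKO MED1 library. Reads over 1425 olfactory and vomeronasal receptor genes, which B cells are not known to use, were 0.198, 0.279, 0.528 and 0.903 per kb in cKO MED1 replicates 1 to 4, against 0.0933, 0.207 and 0.168 in WT replicates 1 to 3. At that level they would make up at most 0.205% of the reads of any of the 10 genes in any library. B cell markers were present in every library, with a summed level of 2760 to 3110 CPM in cKO MED1 and 3850 to 4130 in WT. Of these 8 markers, 5 passed as lower and 0 as higher. Over all tested genes 14.6% passed as lower and 13.4% as higher, and among the 6021 with the highest mean level 27.8% and 5.6%. Summed T cell markers reached at most 4.88 CPM in cKO MED1 and 1.38 in WT, and macrophage and monocyte markers at most 8.58 and 6.73. Dendritic cell markers summed to 72.6 to 96.0 CPM in cKO MED1 and 49.4 to 69.1 in WT, led by Flt3. Plasma cell markers summed to 802 to 1230 CPM in cKO MED1 and 1420 to 2170 in WT, led by Jchain. Of these 5 plasma cell markers, 2 passed as lower and 1 as higher. None of the markers in these lists was at 0 in every library. Their part in the results below was not tested.

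Of the 10 genes, 5 passed limma's adjusted p of 0.05: Il4ra, Socs1 and Fcer2a fell, and Socs3 and Jak3 rose. Il2rg, Jak1, Stat6, Cish and Batf did not pass. The background is high in this comparison, as 28.0% of all tested genes passed, 14.6% as lower and 13.4% as higher. All 10 genes lie among the 6021 tested genes with the highest mean level, of which 27.8% passed as lower and 5.6% as higher. Of the 10 genes, 4 had every cKO MED1 library below every WT library (Il4ra, Stat6, Socs1 and Fcer2a) against 19.8% of all tested genes. For 1 gene every cKO MED1 library was above (Socs3), against 19.3%. These shares were not computed for the 6021 genes with the highest mean level. More genes passed as lower there, so 19.8% may be too low a background for these 10. When sex was added to the model, 0 of the 10 genes passed by limma (5 at an unadjusted p under 0.05), while 228 of all tested genes did. With 1 surrogate variable 0 of the 10 passed (5 unadjusted) and 241 of all. The genes at an unadjusted p under 0.05 were not the same 5 that passed above. With sex they held Stat6 and not Jak3, and with the surrogate variable Cish and not Fcer2a. The median log2 fold change was -0.02 over the 10 genes and 0.04 over all tested genes (quartiles -0.23 and 0.52). In bulk RNA, a change in the share of cells that make a transcript and a change in the amount per cell cannot be told apart.

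**Figure D1:**
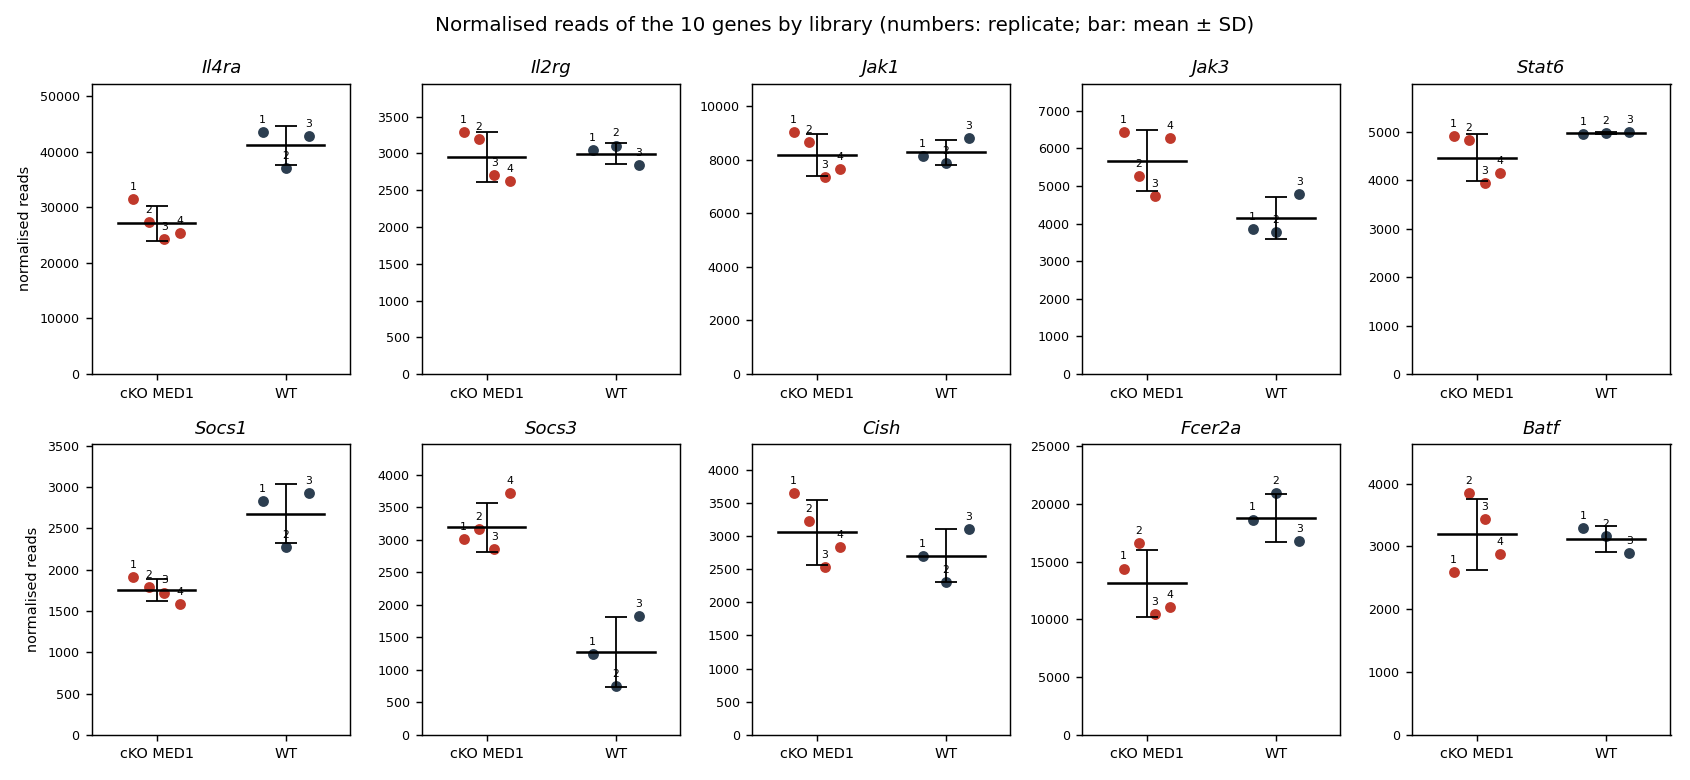
Normalised reads (vertical axes, each from 0) of the 10 genes in each cKO MED1 (red, n = 4) and WT (dark, n = 3) library, with replicate numbers and the mean ± SD. Il4ra, Socs1 and Fcer2a stand lower in all 4 cKO MED1 libraries than in any WT library, Socs3 stands higher in all 4, and Jak1, Il2rg, Cish and Batf overlap.

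The receptor chains differed from each other. Il4ra (chr7:125552120-125579474, GRCm38, plus strand), the gene of the chain that binds IL-4, held 31400.3, 27395.0, 24303 and 25389 normalised reads in cKO MED1 replicates 1 to 4, against 43501, 37078 and 42757 in WT replicates 1 to 3. Every cKO MED1 library was below every WT library. The mean was 27122 ± 3127 (SD, n = 4) in cKO MED1 and 41112 ± 3513 (SD, n = 3) in WT, so that 66.0% of the WT level remained (log2 fold change -0.60 with an SE of 0.13, limma adjusted p = 0.00839). Within the male libraries the log2 fold change was -0.75 (limma adjusted p = 0.0283), a fit in which the 1 cKO MED1 library is assumed to vary like the WT libraries. Il2rg, the shared gamma chain gene on chromosome X, held 3291, 3197, 2701 and 2629.9 reads in cKO MED1 replicates 1 to 4, against 3046, 3108 and 2837 in WT replicates 1 to 3. Its groups overlapped, and the log2 fold change of -0.03 had a 95% confidence interval of -0.25 to 0.19 (limma adjusted p = 0.858). The value within the male libraries was -0.15 (limma adjusted p = 0.363).

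Because both chains were read in the same library, their ratio does not depend on how libraries are scaled. Il4ra had 9.54, 8.57, 9.0 and 9.65 reads for each Il2rg read in cKO MED1 replicates 1 to 4, against 14.3, 11.9 and 15.1 in WT replicates 1 to 3. The groups did not overlap, and the mean log2 ratio differed by -0.58 (two-sided exact permutation test over 35 assignments, p = 0.0286, the smallest this design allows, and 0.0358 adjusted over 5 ratios). In the male libraries alone the difference was -0.61, where no p under 0.25 can be reached.

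The receptor kinases differed too. Jak3 (chr8:71676296-71690575, plus strand), whose product sits on the gamma chain, held 6435, 5254, 4737 and 6279 reads in cKO MED1 replicates 1 to 4, against 3867, 3778 and 4797 in WT replicates 1 to 3. The groups overlapped, since cKO MED1 replicate 3 was below WT replicate 3. The mean of 5676 ± 816 (SD, n = 4) in cKO MED1 was above the 4147 ± 564 (SD, n = 3) in WT (log2 fold change 0.45 with an SE of 0.13, limma adjusted p = 0.0258). This call is the least stable of the 5 genes. It ended in 13 of 25 alternatives, among them without WT replicate 1 (0.35, limma adjusted p = 0.149), without WT replicate 2 (0.33, limma adjusted p = 0.126), without cKO MED1 replicate 4 (0.42, limma adjusted p = 0.0531) and scaling by the authors' size factors (0.32, limma adjusted p = 0.104). In the male libraries the log2 fold change was 0.20 (limma adjusted p = 0.368). Jak1, the kinase on the alpha chain, held 9029, 8654, 7358 and 7652 reads in cKO MED1 replicates 1 to 4, against 8129.8, 7890.0 and 8789 in WT replicates 1 to 3. Its groups overlapped (log2 fold change -0.02, 95% confidence interval -0.24 to 0.20, limma adjusted p = 0.888). For each Jak1 read there were 0.713, 0.607, 0.644 and 0.821 Jak3 reads in cKO MED1 replicates 1 to 4, against 0.476, 0.479 and 0.546 in WT replicates 1 to 3. This ratio separated the groups although Jak3 itself did not, with a difference of 0.47 in the mean log2 ratio (two-sided exact permutation test, p = 0.0286, adjusted 0.0358), and 0.37 in the male libraries.

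Stat6, the transcription factor gene at the end of the receptor pathway, held 4919, 4844, 3956 and 4151 reads in cKO MED1 replicates 1 to 4, against 4963, 4976 and 4999.7 in WT replicates 1 to 3. The WT libraries were nearly equal, with a coefficient of variation of 0.370%, against 10.9% in cKO MED1. All cKO MED1 libraries were below all WT libraries, replicates 1 and 2 only narrowly, and the difference did not pass (log2 fold change -0.16, 95% confidence interval -0.38 to 0.05, limma adjusted p = 0.216). Over all tested genes, called or not, the groups did not overlap in 39.1%. Without cKO MED1 replicates 3 and 4, the libraries with the most reads over silent receptor genes, the log2 fold change was -0.02 (limma adjusted p = 0.881). Relative to Stat6, Il4ra remained lower. It had 6.38, 5.65, 6.14 and 6.12 reads for each Stat6 read in cKO MED1 replicates 1 to 4, against 8.76, 7.45 and 8.55 in WT replicates 1 to 3, a difference of -0.44 in the mean log2 ratio (two-sided exact permutation test, p = 0.0286, adjusted 0.0358).

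**Figure D2:**
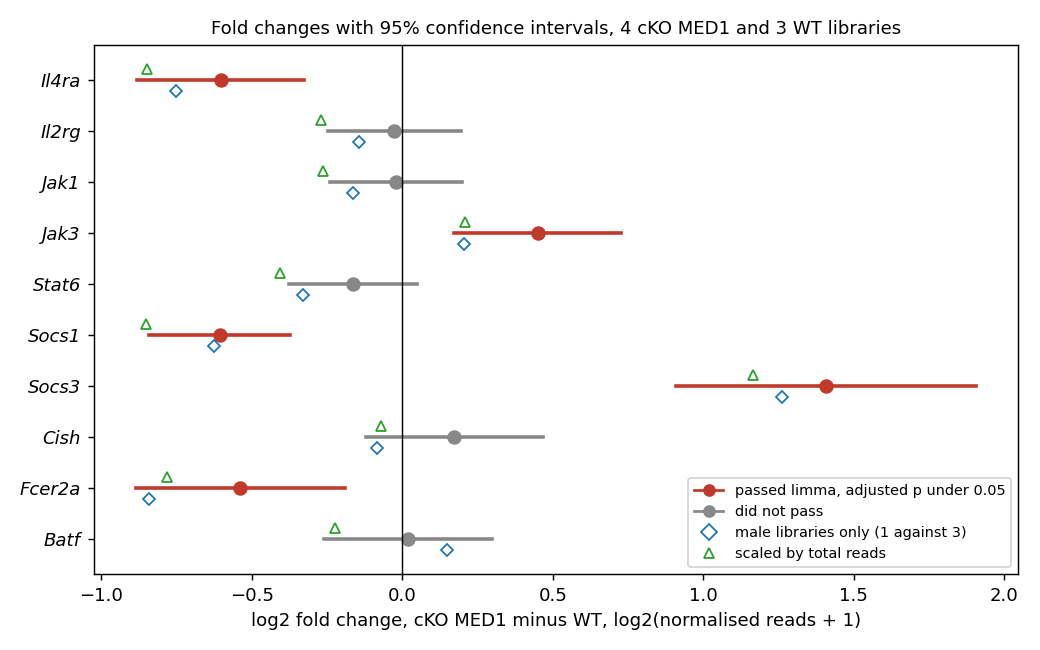
Log2 fold change (horizontal axis, cKO MED1 minus WT) of each gene with its 95% confidence interval from limma, red where the gene passed and grey where it did not. Diamonds give the male libraries alone and triangles the scaling by total reads. Socs3 stands at 1.41 and Il4ra and Socs1 at -0.60 and -0.61, and the sign of these 3 was the same in both alternatives.

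Of the feedback genes, Socs1 and Socs3 moved in opposite directions. Socs1 (chr16:10782240-10785536, minus strand), whose product inhibits JAK kinases directly, held 1908, 1789.6, 1723 and 1585 reads in cKO MED1 replicates 1 to 4, against 2835, 2269 and 2929 in WT replicates 1 to 3. Its groups did not overlap. The mean was 1751 ± 135 (SD, n = 4) in cKO MED1 and 2678 ± 357 (SD, n = 3) in WT, or 65.4% of the WT level (log2 fold change -0.61 with an SE of 0.11, limma adjusted p = 0.00394). Socs3 (chr11:117966079-117970047, minus strand), a relative best known for restraining receptors of the IL-6 family, held 3016, 3164, 2862 and 3721 reads in cKO MED1 replicates 1 to 4, against 1245.5, 749 and 1833 in WT replicates 1 to 3. The lowest cKO MED1 library was well above the highest WT library. Its mean of 3191 ± 374 (SD, n = 4) in cKO MED1 was 250.1% of the 1276 ± 543 (SD, n = 3) in WT (log2 fold change 1.41 with an SE of 0.23, limma adjusted p = 0.00261), the largest change among the 10 genes. Its WT libraries had the highest coefficient of variation of any of the 10 genes in either group, 42.5%, and without WT replicate 2 the log2 fold change was 1.01 (limma adjusted p = 0.00167). In the male libraries the log2 fold change was -0.62 for Socs1 (limma adjusted p = 0.0502) and 1.26 for Socs3 (limma adjusted p = 0.0732), and neither passed.

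The order of these 2 genes differed between the groups. There were 0.633, 0.566, 0.602 and 0.426 Socs1 reads for each Socs3 read in cKO MED1 replicates 1 to 4, against 2.28, 3.03 and 1.60 in WT replicates 1 to 3. Socs1 thus held fewer reads than Socs3 in each cKO MED1 library and more in each WT library, and the 2 genes are of nearly the same exonic length (2908 and 2891 bases). The mean log2 ratio differed by -2.02 (two-sided exact permutation test, p = 0.0286, adjusted 0.0358), by -1.886 in the male libraries and by -1.895 without cKO MED1 replicates 3 and 4. Since neither gene overlapped between the groups and they moved in opposite directions, the ratio had to separate the groups. Its p was therefore fixed in advance and adds no evidence beyond the results of the 2 genes. It was still counted in the adjustment over 5 ratios, which makes 0.0358 slightly too low for the other ratios given that value. Cish, the remaining family member here, held 3650.5, 3223.5, 2525 and 2826 reads in cKO MED1 replicates 1 to 4, against 2697.5, 2307 and 3107 in WT replicates 1 to 3. Its groups overlapped (log2 fold change 0.17, 95% confidence interval -0.12 to 0.47, limma adjusted p = 0.340).

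**Figure D3:**
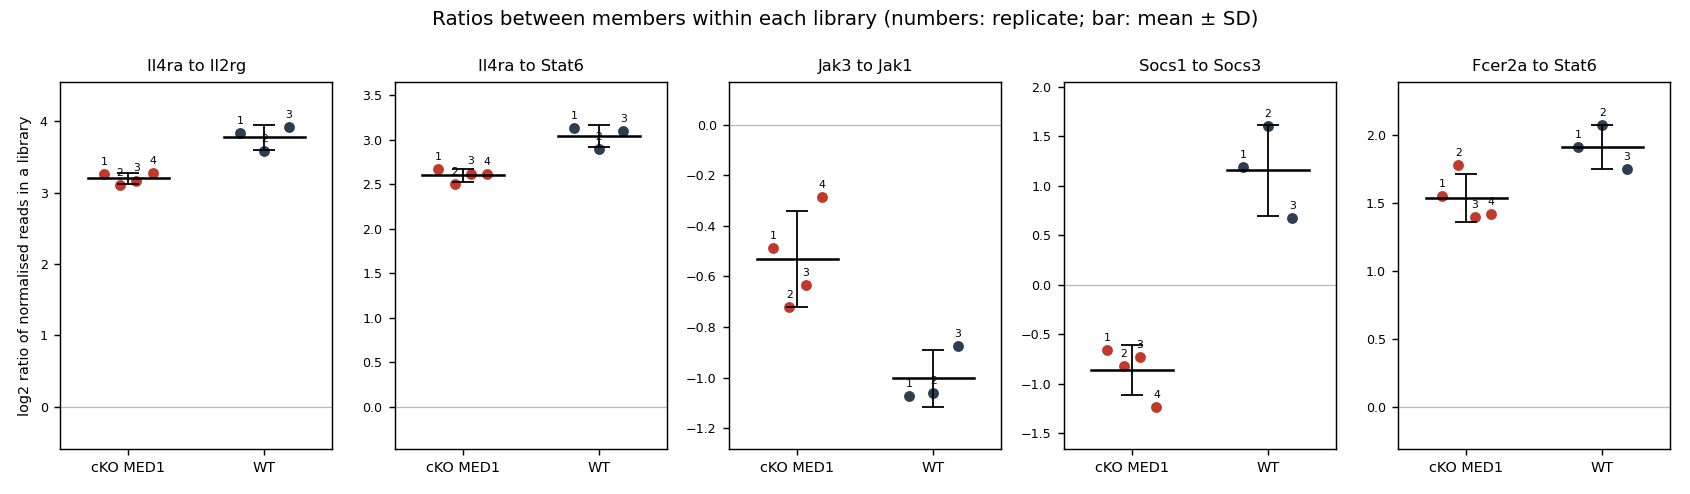
Log2 ratio of normalised reads of 2 genes within each library (vertical axes, each with its own scale) for cKO MED1 (red, n = 4) and WT (dark, n = 3), with the mean ± SD. The Socs1 to Socs3 ratio lies below 0 in all cKO MED1 libraries and above 0 in all WT libraries, and the Fcer2a to Stat6 ratio overlaps.

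Of the genes that answer the signal, Fcer2a (chr8:3681737-3694175, minus strand) held 14416, 16599.8, 10432 and 11096 reads in cKO MED1 replicates 1 to 4, against 18665, 20979.5 and 16774 in WT replicates 1 to 3. The groups did not overlap, but cKO MED1 replicate 2 was only just below WT replicate 3. The mean was 13136 ± 2893 (SD, n = 4) in cKO MED1 and 18806 ± 2106 (SD, n = 3) in WT, or 69.9% of the WT level (log2 fold change -0.54 with an SE of 0.16, limma adjusted p = 0.0303). The 2 lowest libraries were cKO MED1 replicates 3 and 4. Without replicate 3 the log2 fold change was -0.41 (limma adjusted p = 0.0771), without replicate 4 it was -0.44 (limma adjusted p = 0.0826), and without both it was -0.27 (limma adjusted p = 0.178). The call also ended without WT replicate 1 (-0.59, limma adjusted p = 0.0758) and without WT replicate 2 (-0.51, limma adjusted p = 0.0693). Within the male libraries it was -0.84 (limma adjusted p = 0.0194). Relative to Stat6 the groups overlapped, with 2.93, 3.43, 2.64 and 2.67 Fcer2a reads for each Stat6 read in cKO MED1 replicates 1 to 4, against 3.76, 4.22 and 3.35 in WT replicates 1 to 3 (difference of -0.38 in the mean log2 ratio, two-sided exact permutation test, p = 0.0857, adjusted 0.0857). Batf held 2598, 3855, 3445 and 2879 reads in cKO MED1 replicates 1 to 4, against 3300.0, 3163 and 2895 in WT replicates 1 to 3, and did not pass (log2 fold change 0.02, 95% confidence interval -0.26 to 0.30, limma adjusted p = 0.918).

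Per kb of exon, Il4ra and Fcer2a were the most abundant of the 10 genes in both groups, at 4519 ± 521 and 4248 ± 936 normalised reads per kb in cKO MED1 (SD, n = 4) and 6850 ± 585 and 6082 ± 681 in WT (SD, n = 3). Their ranges overlapped in both groups, so their order is not settled. Batf followed at 2272 ± 401 in cKO MED1 and 2219 ± 147 in WT, apart from the genes on either side of it. Below it, Il2rg, Jak1, Socs3, Jak3 and Stat6 lay between 1015 and 1238 on average in cKO MED1, and neighbours in that order overlapped. Socs1, at 602.2 ± 46.4, and Cish, at 476 ± 76.2, came last. The ranges of these last genes overlapped each other and lay below those of the rest. In WT the order after Batf was Il2rg (1256), Jak1 (1144), Stat6 (1131), Socs1 (921), Jak3 (775), Socs3 (441) and Cish (421). Neighbours overlapped there except Stat6 and Socs1, and Jak3 and Socs3. Socs3 thus stood beside Cish at the low end in WT and beside the JAK genes in cKO MED1. Reads of genes that overlap an exon are assigned in a way not given in the sources used here. Nab2 overlaps Stat6 on the opposite strand and held 526.5 reads on average in cKO MED1 and 644 in WT, and Insl3 overlaps Jak3 and held 63.7 and 40.1.

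**Figure D4:**
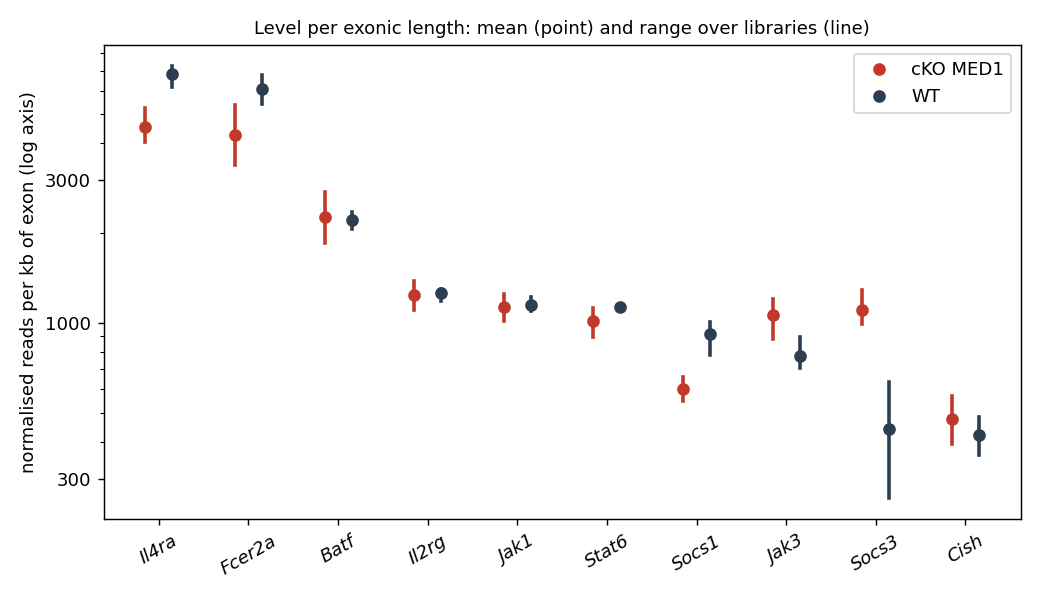
Normalised reads per kb of exon (vertical log axis) of the 10 genes, ordered by their WT mean, with the mean (point) and the range over libraries (line) for cKO MED1 (red, n = 4) and WT (dark, n = 3). Socs3 is the gene whose place in the order differs most between the groups, and the lines of Il4ra do not overlap.

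By the smallest root mean square difference in log2 deviation from the WT mean over the 7 libraries, among 9043 genes with at least 200 normalised reads, the genes most like Il4ra were Hif1a, the oxygen-responsive transcription factor gene (0.04), Cltc, the clathrin heavy chain gene (0.05), and Pacsin1 (0.05). Those most like Socs1 were the sphingosine phosphate receptor gene S1pr4 (0.05), Sbk1 (0.07) and Ankrd28 (0.07). Those most like Stat6 were Rcsd1 (0.01), Plcl2 (0.03) and Hnrnpa1 (0.03). Predicted genes, pseudogenes and Ig segments were not candidates. A nearest gene always exists among so many, and the measure includes the shift between the groups. Hif1a, Cltc and Pacsin1 had log2 fold changes of -0.585, -0.634 and -0.597. No shared regulation follows from this.

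Of 39 other genes of IL-4 signalling, 36 were tested, 6 fell and 2 rose, with a median log2 fold change of 0.06, against 14.6% lower and 13.4% higher (28.0% in all) and a median of 0.04 over all tested genes. Among the 6021 tested genes with the highest mean level, 27.8% were lower and 5.6% higher. The split by direction in the list depended on the scaling and on 1 library. By limma 6 fell and 0 rose with the authors' size factors or RLE factors, 7 fell and 0 rose with total reads, and 2 fell and 4 rose without cKO MED1 replicate 3. The adaptor gene Dok2 fell to 170.2 ± 26.4 reads in cKO MED1 (SD, n = 4), against 295.9 ± 24.0 in WT (SD, n = 3), lower by limma (log2 fold change -0.80 ± 0.14 SE, adjusted p = 0.00402). Parp14, whose product binds STAT6 and supports its activity, fell to 8942 ± 1637 reads in cKO MED1, against 13091 ± 694 in WT (log2 fold change -0.57, limma adjusted p = 0.0136). Of the phosphatase genes in the list that act on cytokine receptors or JAK kinases, 3 fell: Ptpn6, encoding SHP-1 (-0.36), Ptpn11, encoding SHP-2 (-0.32), and Ptpn2 (-0.29). Their calls ended in 9, 9 and 11 of 25 alternatives. Ptpn1 (0.28, limma adjusted p = 0.0606) and Ptprc (0.10, limma adjusted p = 0.491) had the opposite sign and did not pass. These 2 were named after their values were seen. Sos1, a Ras exchange factor gene, rose (0.44), a call that ended in 14 of 25 alternatives. Those of Dok2 and Parp14 ended in 2 and 4. The other calls, Grb2 (-0.41) and Tyk2 (0.25), fell outside the rule for named genes and were added after their values were seen. The count of 8 was 2 without WT replicate 1, 4 without WT replicate 2, 5 without WT replicate 3 and 2 without cKO MED1 replicate 4. The ligand genes Il4 and Il13 were not tested, at 7.68 and 1.49 reads on average in cKO MED1 and 1.34 and 1.09 in WT. Other receptor genes that use the gamma chain, with the related Crlf2, gave 0 calls of 7 by limma, 0 by edgeR and 0 by DESeq2, and 0 had an unadjusted limma p under 0.05. The nearest was Crlf2, with 974.5 ± 151 reads in cKO MED1 and 1139.8 ± 53.4 in WT (log2 fold change -0.24, limma adjusted p = 0.148), followed by Il2rb (0.24) and Il15ra (0.17). Il2ra (-0.12), Il9r (0.09) and the barely detected Il7r (0.45) had adjusted p of 0.434, 0.742 and 0.615 by limma.

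Among 19 tested genes known to answer IL-4 in B cells, 6 fell and 1 rose, with a median log2 fold change of -0.23. Over all tested genes 14.6% were lower and 13.4% higher, and among the 6021 with the highest mean level 27.8% and 5.6%. Ighe and Ighg1 were already known to be lower in these libraries when the list was drawn up, so the count is not independent evidence of a direction. Ighe, the IgE heavy chain gene, fell to 2646 ± 608 reads in cKO MED1, against 5738 ± 332 in WT (log2 fold change -1.14, limma adjusted p = 0.000732). Ccl22, a chemokine gene, fell to 388 ± 175 reads in cKO MED1, against 729.95 ± 54.6 in WT (log2 fold change -1.02, limma adjusted p = 0.0209). Ighg1 (-0.72), the MHC class II activator gene Ciita (-0.44), the transcription factor gene Nfil3 (-0.39) and, outside the rule, Bcl6 (-0.65) fell as well. The costimulatory gene Cd80 rose to 309.9 ± 47.1 reads in cKO MED1, against 201.2 ± 26.8 in WT (log2 fold change 0.62, limma adjusted p = 0.0127). The class II genes H2-Aa (0.03), H2-Ab1 (-0.07) and H2-Eb1 (0.03) also lie outside the rule and did not pass. Without WT replicate 1, 4 of the 19 passed. The calls of Ighe, Ighg1, Ciita, Ccl22, Cd80 and Nfil3 ended in 1, 2, 4, 5, 7 and 9 of 25 alternatives.

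Among 11 tested genes listed as partners of CD23 and BATF, 4 rose and 3 fell (median log2 fold change 0.12). Over all tested genes 13.4% were higher and 14.6% lower. In the 6021 tested genes with the highest mean level, 5.6% were higher and 27.8% lower. With the authors' size factors 2 rose and 3 fell, and with total reads 1 rose and 3 fell, by limma. Batf3, a close relative of Batf, rose to 458 ± 94.8 reads in cKO MED1, against 219.8 ± 24.8 in WT (log2 fold change 1.04 with an SE of 0.16, limma adjusted p = 0.0022). Irf4, which binds DNA together with BATF, rose (0.41), and Irf8, which can do the same, fell (-0.50). Of the AP-1 genes, Jun rose (0.39) with overlapping groups and Jund (-0.42) and, outside the rule, Fosl2 (-0.50) fell. Cr2, the gene of the complement receptor CD21, rose (0.50), whereas Adam10, the gene of the protease that sheds CD23, did not pass (-0.07, also outside the rule). Without WT replicate 1, 3 of the 11 passed. The calls of Irf4 and Jun ended in 14 and 15 of 25 alternatives, and that of Batf3 in 0. Those of Irf8, Jund and Cr2 ended in 2, 6 and 8.

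**Figure D5:**
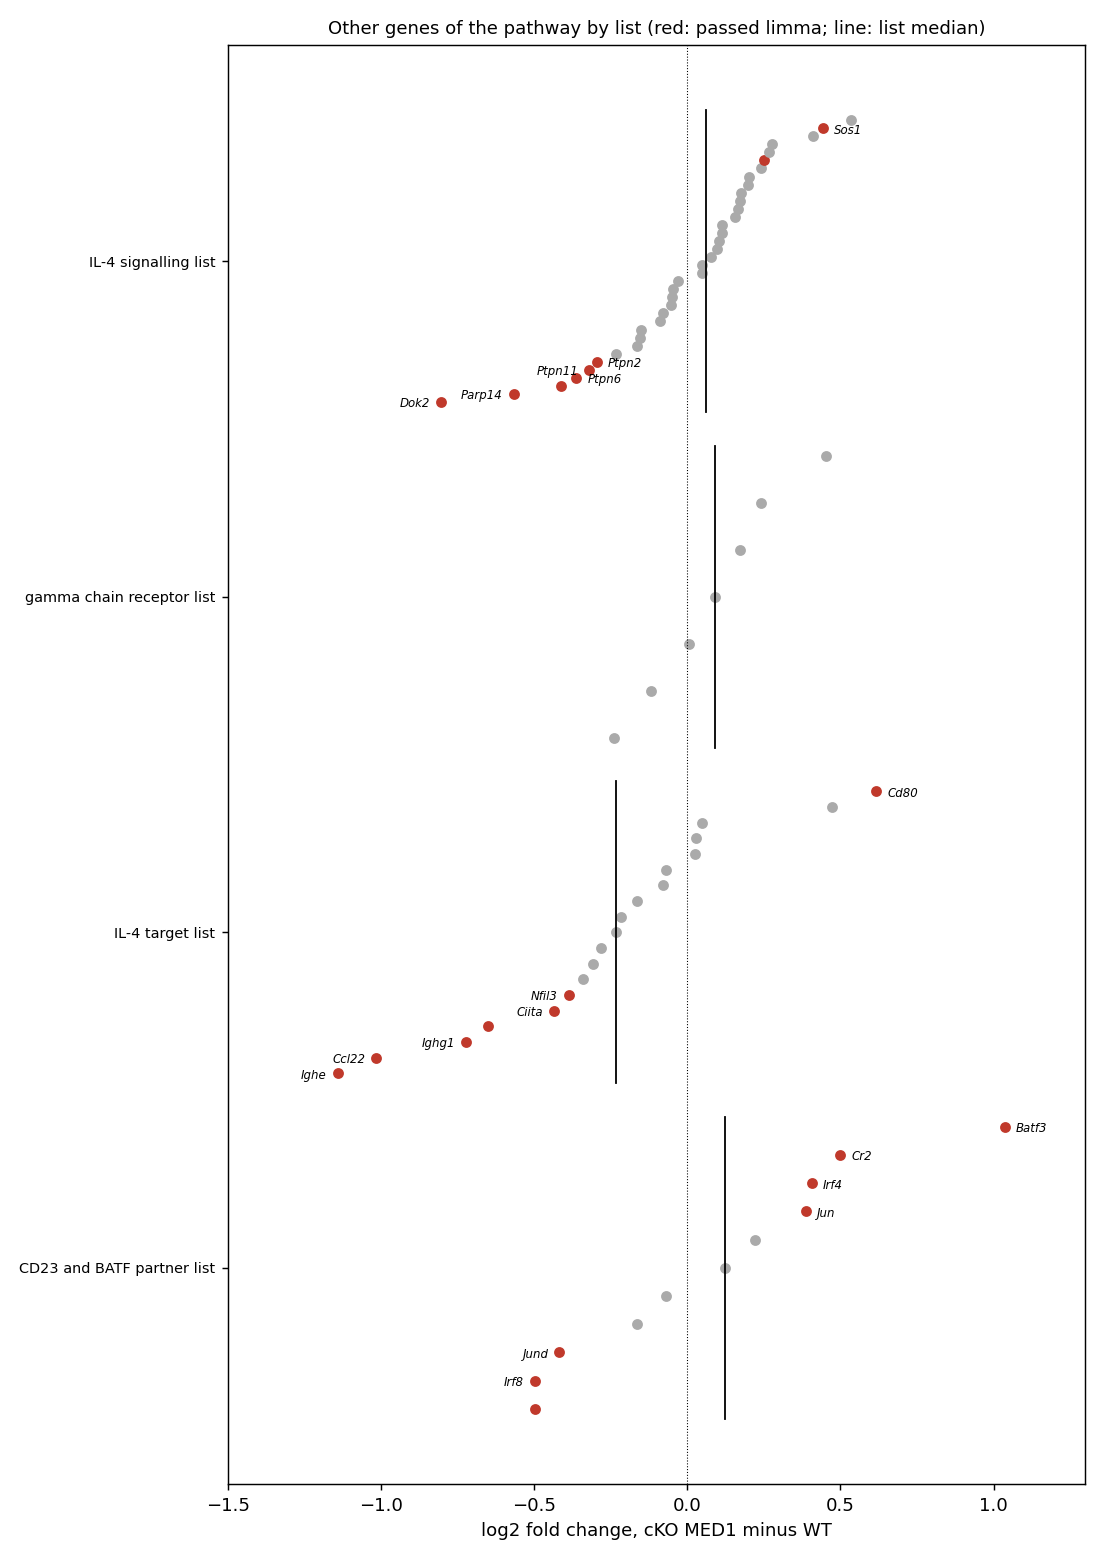
Log2 fold change (horizontal axis, cKO MED1 minus WT) of each tested gene in the 4 lists, red where it passed limma and grey where it did not, with the list median as a line. In the signalling list 6 genes fell and 2 rose (6 and 0 with the authors' size factors), and in the receptor list none passed at a median of 0.09.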

How the data were processed

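Total RNA was sequenced after ribosomal RNA depletion with a stranded kit, 14 amplification cycles and paired reads of 150 bases, per the labels' protocols. The authors deposited a signal, read counts divided by 1 size factor per library: dividing each library by its lowest value above 0 gave whole numbers for 100% of entries (tolerance 1e-06), taken as the reads. The submitters' processing notes name R 3.4, DESeq2, STAR 2.4.0a, Subread 1.5.0-p3, featureCounts and the build GRCm38. Strand use in counting is not stated there. The phiX174 spike-in, at most 0.000383% of reads, was left out. Lengths and positions came from GENCODE (GRCm38) by symbol, which placed 93.8% of features.

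Scaling used TMM factors from edgeR 4.0.16 on genes kept by filterByExpr. The test was limma-trend (limma 3.58.1 in R 4.3.3) of log2(normalised reads + 1), adjusted by Benjamini-Hochberg over 18062 genes at 0.05. This scale understates fold changes of low genes. Factors over all listed features had been looked at first. They are kept as an alternative chosen after seeing the data. Count tests on the recovered reads, edgeR's quasi-likelihood test (5340 genes called) and DESeq2 1.42.0 (6137), were alternatives, as were other scalings, filters and covariates (sva 3.50.0) and each library left out. The limma function was tested on simulated reads. The members and lists were chosen with earlier results of these data known. Named genes are the 10 members, Med1, up to 6 genes with the smallest adjusted p per list, and the 3 nearest genes to Il4ra, Socs1 and Stat6.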

Additional observations from a re-analysis of the deposited data

How the results depend on the processing

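Il4ra, Socs1 and Fcer2a stayed lower and Socs3 and Jak3 higher in all 25 alternatives, with log2 fold changes of -0.85 to -0.40, -0.85 to -0.43, -0.84 to -0.24, 1.01 to 1.66 and 0.20 to 0.56, and limma, edgeR or DESeq2 adjusted p of 2.92e-06 to 0.196, 9.53e-06 to 0.154, 0.00445 to 0.558, 1.67e-05 to 0.128 and 0.00699 to 0.475. Their calls ended in 2, 3, 8, 3 and 13 of them.

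Of the 10 genes, 3 passed at a threshold of 0.01, 0 with sex as a covariate (limma; 5 at an unadjusted p under 0.05), 2 in the male libraries, 0 with 1 surrogate variable (limma; 5 unadjusted) and 3 without cKO MED1 replicates 3 and 4. Leaving out 1 library gave 3 to 5. The 5 at an unadjusted p under 0.05 held Stat6 in place of Jak3 with sex, and Cish in place of Fcer2a with the surrogate variable. In the same order of settings, the genes called across all tested genes, 5065 in the reported fit, numbered 1307, 228, 1096, 241 and 2156, and 1557 (without WT replicate 1) to 6128 with 1 library left out, 2816 without cKO MED1 replicate 4.

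The signalling list's 8 calls became 1, 0 (7 unadjusted), 2, 0 (9 unadjusted) and 3 in those settings by limma, 3 with the replicate block and 2 to 9 with 1 library left out. The receptor list gave 1 call with total reads and with TMM over all features, which was Crlf2, and 0 with any 1 library left out. The target list's 7 calls became 2 at 0.01, 2 with sex, 0 with the surrogate variable (3 unadjusted), 3 without cKO MED1 replicates 3 and 4, 11 with TMM over all features and 4 to 8 with 1 library left out. The partner list's 7 became 2, 1, 2, 1 and 3 in the order above, 4 with total reads and with TMM over all features, and 3 to 6 with 1 library left out.

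The replicate block left 3741 genes called and ended the call of Jak3 (0.40, limma adjusted p = 0.07), and no other call among the 10 genes. Samples with the same number did not all deviate together (r = 0.515, -0.235 and 0.163), so the numbers were not taken to pair them.

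With fewer libraries the exact tests of the ratios could not pass, the smallest p being 0.0667 to 0.25. The difference in mean log2 ratio in the male libraries, and without cKO MED1 replicates 3 and 4, was -0.606 and -0.599 for Il4ra to Il2rg, -0.423 and -0.455 for Il4ra to Stat6, 0.367 and 0.398 for Jak3 to Jak1, and -1.886 and -1.895 for Socs1 to Socs3. With 1 library left out these ranged over -0.677 to -0.508, -0.513 to -0.395, 0.388 to 0.535 and -2.254 to -1.793.

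The share of calls that were higher was 47.8%, but 37.3% with the authors' size factors or RLE factors and 31.8% with total reads; the median of all genes, 0.04 here, was -0.10 and -0.21 there.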

Other observations

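WT replicate 2, male by its 4500 normalised reads of Ddx3y, also held 1240 reads of Xist, against 59.2 and 11.2 in WT replicates 1 and 3. The female cKO MED1 libraries held 36400 to 41100. The same WT library had the lowest Socs3, Socs1, Cish, Il4ra, Jak1 and Jak3 of its group, at 749, 2269, 2307, 37078, 7890.0 and 3778 reads. It had the highest Fcer2a and Il2rg, at 20979.5 and 3108. With so few WT libraries, any of them is the lowest or highest of its group for many genes. Whether these values go together was not tested.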
